A study of Mus musculus with 8 samples.

Results

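The genes described here encode 10 proteins with which macrophages bind modified lipoproteins, bacteria and dying cells. They are 6 scavenger receptors (Msr1, Marco, Stab1, Scarb1, Cd163 and Lrp1), the TAM receptors Axl and Mertk, and the bridging proteins Gas6 and Mfge8. Members were chosen by gene symbol, and all 10 were found among the 41444 genes listed. The data were RNA-seq profiles of macrophages grown from the bone marrow of wild-type C57BL/6 mice in medium with the growth factor M-CSF. A group of 4 libraries received vehicle, and another 4 received SLIT2, a secreted guidance ligand of ROBO receptors, at 6 nM for 16 hours. The labels used here give no age or sex, and do not say whether replicates were separate animals or cultures. If some replicates were not, the spread between those replicates is technical alone. Any p-value that rests on that spread alone covers nothing wider.

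Scavenger receptors are cell-surface proteins that bind many unrelated ligands, among them oxidized low-density lipoprotein and bacterial surfaces. Efferocytosis is the clearance of apoptotic cells, which expose the lipid phosphatidylserine. Bridging proteins bind that lipid and a receptor at once: Gas6 and protein S link it to the TAM receptor tyrosine kinases Tyro3, Axl and Mertk, and Mfge8 links it to alpha-v integrins. Mertk is known for clearance by resting and corticosteroid-treated macrophages, and Axl for its presence on macrophages in inflamed tissue.

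Expression is given as regularized-log (rlog) values, a log2 scale in which a difference of 1 corresponds to a doubling, less the shrinkage the transform applies to low genes. The table used here holds no counts, which leaves each library's depth unknown. A filter on the mean rlog, set at 4, left 11851 genes for testing with limma, 9 members among them. Replicates 1 and 2 stood apart from replicates 3 and 4 in both groups: Xist, the RNA of female X inactivation, averaged 7.54 ± 0.077 against 12.7 ± 0.044 (SD, n = 4), and the Y-linked Ddx3y 10.8 ± 0.039 against 6.23 ± 0.23 (SD, n = 4). These pairs of libraries are called replicate sets below. Their Xist and Ddx3y levels differ as those of male cells (replicates 1 and 2) and female cells (replicates 3 and 4) do. The part of sex in differences between the sets was not tested. It cannot be told apart from anything else in which the sets differ. The macrophage label was checked against 10 markers, all of them tested. Lyz2 averaged 18.8 in vehicle and 18.7 with SLIT2, Csf1r 15.8 and 15.7, and Adgre1 15.3 and 15.4. These 3 markers differed between the sets: replicates 3 and 4 minus replicates 1 and 2 came to -0.475, -0.735 and -0.680 in vehicle. The set took 94.9%, 98.3% and 95.3% of their sums of squares over the 8 libraries. Of the 10, 2 rose and 1 fell (4 and 3 with replicate number as a block): Mrc1 rose by 1.18 (limma adjusted p = 0.00126), Fcgr1 by 1.17 (0.00160), and Cd68 fell by 0.245 (0.0183). Beside these and the markers below, 6.76% of all genes tested rose and 6.58% fell (16.6% and 16.4% with the block). Itgam, which shares 3450 exonic bases with Gm49368 on the same strand, showed a difference of 0.735 (adjusted p = 0.169, blocked 6.29e-04). Of 10 neutrophil markers, Ly6g was listed at 0 and Mpo and Elane at the lowest value of the table (-2.14), and 1 of 3 tested (Csf3r) rose. Csf3r alone stood at 11.19 to 11.43 in vehicle and 11.83 to 12.21 with SLIT2. The other tested neutrophil markers, S100a8 and Cxcr2, differed by -0.155 and -0.235, and neither was called. The log2 of the summed neutrophil markers, most of it Csf3r, was 11.28 to 11.48 in vehicle and 11.88 to 12.24 with SLIT2. The same sum, most of it Atp6v0d2, was 13.36 to 13.93 and 12.59 to 13.23 for 8 osteoclast markers, of which Calcr was listed at 0. Of 5 tested 2 fell, Atp6v0d2 (-0.76, limma adjusted p = 0.0446) and Dcstamp (-1.40, 0.00615). Acp5, Ctsk and Mmp9 differed by -0.050, -0.020 and -0.43, and none was called. For 8 lymphocyte markers (Ncr1 listed at 0, 1 of 1 tested, Cd4, lower) the sum, most of it Cd4, was 9.89 to 10.26 and 9.42 to 9.78. It was 10.35 to 10.62 and 10.53 to 10.86 for 10 stromal and endothelial markers (1 of 6 tested higher), and 4.95 to 5.39 and 4.88 to 5.15 for 6 dendritic cell markers (0 of 1 tested called). The part of these other cell types in the results below was not tested.

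With SLIT2, the receptor gene Axl fell and its ligand gene Gas6 rose, while Mertk moved in opposite directions in the replicate sets. Of the 9 tested members 6 differed in 1 direction in all 4 same-numbered pairs of libraries: Gas6, Msr1 and Stab1 were higher and Axl, Mfge8 and Lrp1 lower, and 50.0% of all genes tested did so. In the limma test with treatment only, 1 of the 9 tested members rose and 1 fell at an adjusted p under 0.05. Over all genes tested 13.3% were called, 6.76% as higher and 6.58% as lower. Replicate numbers were taken to pair the samples, which the labels do not state. With replicate number as a block 3 of the 9 rose and 3 fell. In that fit 33.0% of all genes tested were called, 16.6% as higher and 16.4% as lower. With the duplicates of each set averaged and the set as a block, which leaves 2 samples a group, 1 member rose (Msr1; 3.15% of all genes tested rose) and 1 fell (Axl; 2.66% fell), and 5.81% of all genes tested were called. The median difference of the 9 was 0.010 and their median absolute difference 0.34, beside 0.0025 and 0.11 over all genes tested. The groups did not overlap for 3 of the 9 (Gas6 higher, Axl and Mfge8 lower), beside 20.5% of all genes tested, 10.6% higher and 9.99% lower.

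**Figure D1:**
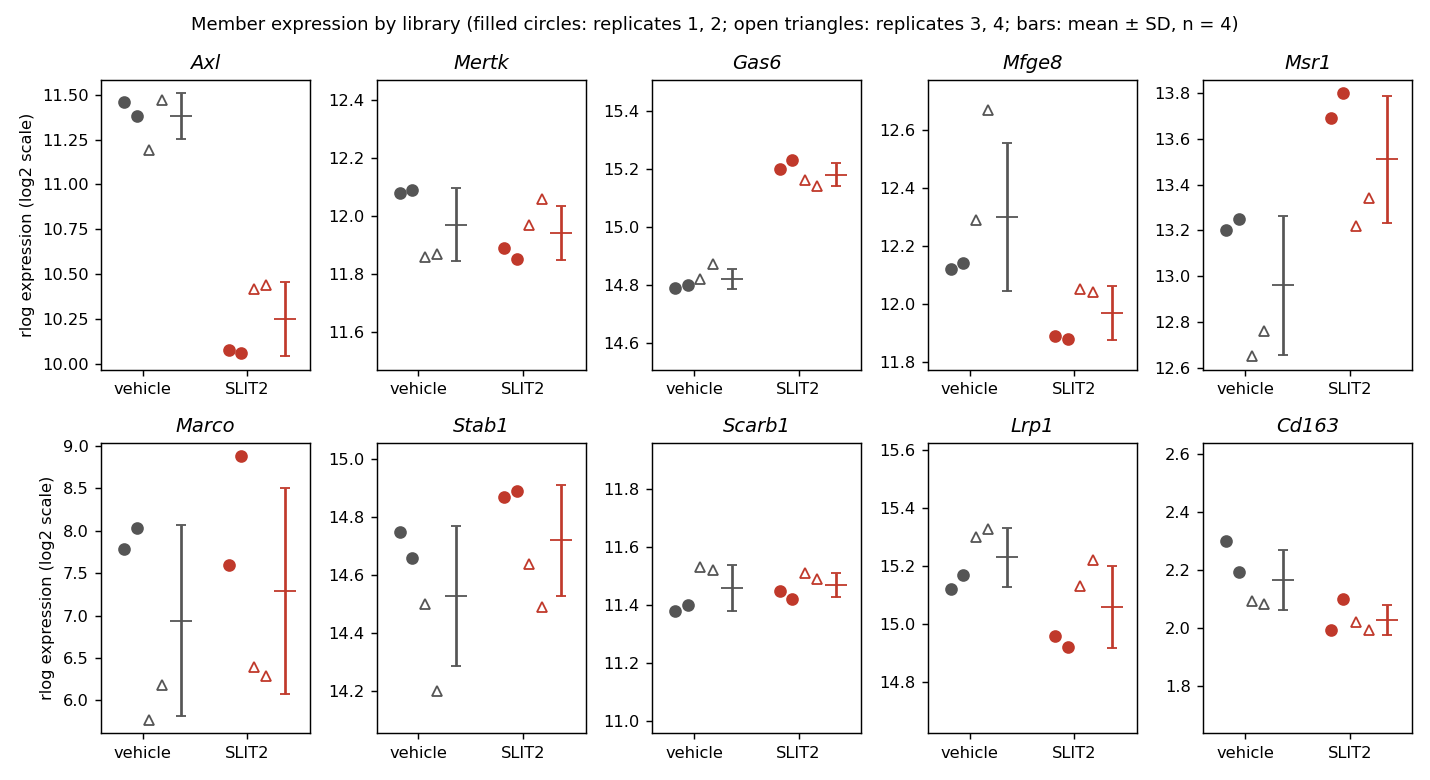
Expression of each member by library, as rlog values on a log2 scale, with an axis per gene. Grey symbols are vehicle and red symbols SLIT2, filled circles are replicates 1 and 2, open triangles are replicates 3 and 4, and bars are the mean ± SD (n = 4). Axl falls from between 11.19 and 11.47 to between 10.06 and 10.44, while the circles and triangles of Mertk change places.

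Axl (ENSMUSG00000002602, minus strand of chr7:25757273-25788705 in GRCm38) encodes a TAM receptor tyrosine kinase that binds Gas6. Its rlog values were 11.46, 11.38, 11.19 and 11.47 in vehicle replicates 1 to 4 and 10.08, 10.06, 10.42 and 10.44 in SLIT2 replicates 1 to 4. Every SLIT2 library lay below every vehicle library, by 0.75 at the least. Its mean was 11.4 ± 0.13 in vehicle and 10.25 ± 0.21 with SLIT2 (SD, n = 4). Axl thus fell, with a log2 difference of -1.13 (SE 0.11, limma adjusted p = 4.73e-04), or 0.46 times the vehicle level. Axl fell by 1.35 in replicates 1 and 2 and by 0.90 in replicates 3 and 4, and the difference between the sets did not pass its own test (0.45, 95% interval 0.20 to 0.70, adjusted p = 0.0643). In bulk RNA, fewer cells that express a gene and less RNA per cell cannot be told apart, here and for each result below.

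Mertk (ENSMUSG00000014361, plus strand of chr2:128698956-128802894) encodes the TAM receptor that mediates engulfment of apoptotic cells by macrophages. Its values were 12.08, 12.09, 11.86 and 11.87 in vehicle and 11.89, 11.85, 11.97 and 12.06 with SLIT2. The groups overlapped, and the mean difference of -0.033 had a 95% interval from -0.20 to 0.14 (limma adjusted p = 0.848). Within each set they did not overlap. SLIT2 libraries were lower by 0.19 and 0.24 in replicates 1 and 2 and higher by 0.11 and 0.19 in replicates 3 and 4. The difference between the set effects was 0.37 (SE 0.050, 95% interval 0.25 to 0.48, limma adjusted p = 0.0105), and Mertk was the sole member of the 9 to pass that test, which 4.40% of all genes tested passed. An opposite direction in the sets, with no overlap in either, was found at 4.63% of all genes tested. The error in this test comes from duplicates, and the call was lost with a variance prior without a trend (adjusted p = 0.0607). Of the sum of squares of Mertk over the 8 libraries, 87.1% belonged to the interaction of treatment and set, 2.76% to treatment and 3.68% to set. For Axl, treatment took 93.3% and the interaction 3.73%.

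In vehicle Mertk stood above Axl per exonic kilobase by 0.84, 0.93, 0.89 and 0.62 on the log2 scale, and with SLIT2 by 2.03, 2.01, 1.77 and 1.84. This gap is a difference of levels, and its mean went from 0.82 ± 0.14 to 1.91 ± 0.13 (SD, n = 4), by 1.14 in replicates 1 and 2 and by 1.05 in replicates 3 and 4. The 4 SLIT2 values lay above the 4 vehicle values, and whether the change of the gap differed between the sets was not tested. Tyro3, the remaining TAM receptor, was under the filter at 0.67 ± 0.039 in vehicle and 0.65 ± 0.021 with SLIT2 (SD, n = 4).

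Gas6 (ENSMUSG00000031451, minus strand of chr8:13465374-13494490) encodes the vitamin K-dependent ligand that joins phosphatidylserine to the TAM receptors. Its values were 14.79, 14.80, 14.82 and 14.87 in vehicle and 15.20, 15.23, 15.16 and 15.14 with SLIT2. The groups did not overlap, and the lowest SLIT2 library exceeded the highest vehicle library by 0.27. Its mean was 14.8 ± 0.036 in vehicle and 15.2 ± 0.040 with SLIT2 (SD, n = 4). Gas6 thus rose, with a log2 difference of 0.36 (SE 0.043, limma adjusted p = 0.00111), by 0.42 in replicates 1 and 2 and by 0.31 in replicates 3 and 4. With averaged duplicates its call was lost (adjusted p = 0.0677). Gas6 shares 34 exonic bases with Tmem255b on the opposite strand, and no label used here states whether reads were counted by strand.

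Pros1, the gene of protein S and the other ligand of the TAM receptors, moved in the same direction. Its values were 10.94, 10.95, 11.08 and 11.07 in vehicle and 11.88, 12.03, 12.06 and 12.09 with SLIT2. It rose by 1.01 (SE 0.060, limma adjusted p = 6.13e-05), by 1.01 in replicates 1 and 2 and by 1.00 in replicates 3 and 4, and the groups did not overlap. Measured as levels within a library and per exonic kilobase, Gas6 exceeded Axl by 4.43 ± 0.13 in vehicle and 5.92 ± 0.25 with SLIT2 (SD, n = 4).

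Mfge8 (ENSMUSG00000030605, minus strand of chr7:79133768-79149060) encodes lactadherin, which carries an integrin-binding site and a phosphatidylserine-binding part. Its values were 12.12, 12.14, 12.29 and 12.67 in vehicle and 11.89, 11.88, 12.05 and 12.04 with SLIT2. All SLIT2 libraries lay below all vehicle libraries, with a gap of 0.07 between the nearest. The log2 difference was -0.34 (SE 0.12, 95% interval -0.62 to -0.065, limma adjusted p = 0.109), 0.0137 with the replicate block and 0.0857 with averaged duplicates. The first set gave -0.25 and the second set -0.44, where vehicle replicate 4 stood highest, and -0.22 without that library. Itgb3, the beta-3 chain of an integrin that binds Mfge8, fell by 1.15 (SE 0.10, adjusted p = 3.40e-04), from between 9.63 and 10.03 to between 8.49 and 8.78. The gene of its alpha-v partner, Itgav, showed a difference of -0.34 (adjusted p = 0.272, blocked 0.0118), and Itgb5, another beta chain, one of 0.26 (adjusted p = 0.489, blocked 0.0105). With averaged duplicates neither was called (0.138 and 0.135). Itgav shares 634 exonic bases with an opposite-strand transcript, Gm13684.

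**Figure D2:**
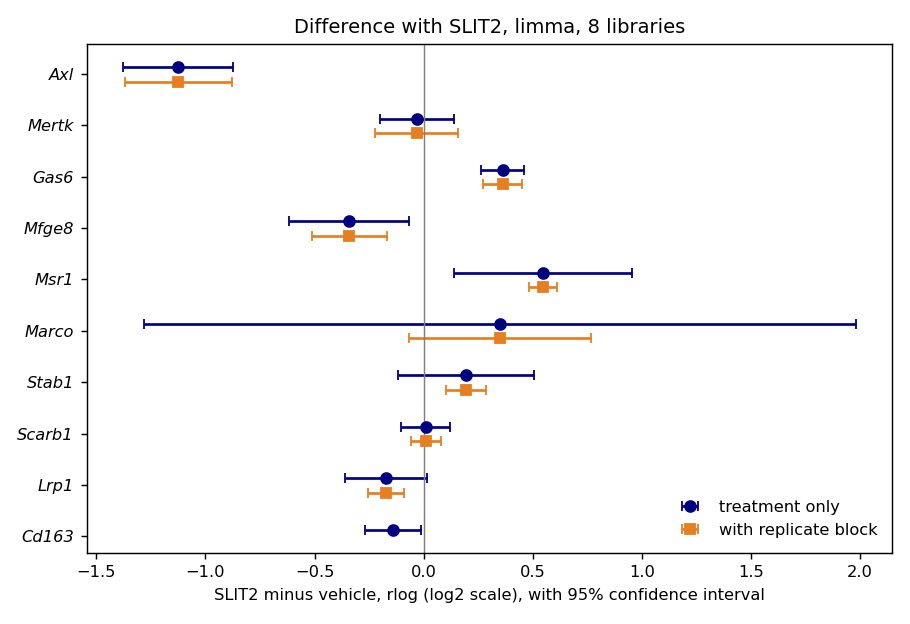
Difference with SLIT2 for each member, as SLIT2 minus vehicle rlog on a log2 scale, with 95% confidence intervals from limma over 8 libraries. Dark blue circles are the fit with treatment only (for Cd163, the fit without a filter) and orange squares the fit with the replicate block, which narrows the interval of Msr1 from 0.14 to 0.96 to 0.48 to 0.61.

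The stretches of 250 bases before the start sites of Axl, Gas6 and Mertk are shown because these members fell, rose and moved in opposite directions, respectively, within a receptor-ligand group. They are RefSeq sequences on GRCm38.p6, printed 5′ to 3′ along the gene's own strand, and start sites were matched for 8 of the 10 members. Capitals mark matches on either strand to the GC box (GGGCGG) and to the PU.1 core (GAGGAA), neither of which overlaps another match here.
Axl (minus strand of chr7:25788734-25788983): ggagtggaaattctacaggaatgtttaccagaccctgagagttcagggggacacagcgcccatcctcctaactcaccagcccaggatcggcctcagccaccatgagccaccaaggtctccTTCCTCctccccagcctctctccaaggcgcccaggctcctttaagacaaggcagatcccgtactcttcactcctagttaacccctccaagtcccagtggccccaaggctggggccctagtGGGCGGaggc
Gas6 (minus strand of chr8:13494536-13494785): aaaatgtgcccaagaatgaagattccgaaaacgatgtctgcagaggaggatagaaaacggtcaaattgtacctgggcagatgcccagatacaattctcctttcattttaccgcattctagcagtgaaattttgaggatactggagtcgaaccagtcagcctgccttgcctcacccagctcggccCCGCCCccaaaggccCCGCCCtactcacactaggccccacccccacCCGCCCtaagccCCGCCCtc
Mertk (plus strand of chr2:128698665-128698914): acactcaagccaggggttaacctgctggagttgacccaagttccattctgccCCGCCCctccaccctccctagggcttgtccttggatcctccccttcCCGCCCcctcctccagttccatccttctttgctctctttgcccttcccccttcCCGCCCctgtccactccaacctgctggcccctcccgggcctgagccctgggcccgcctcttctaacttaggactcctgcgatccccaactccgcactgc
The Gas6 window held 4 GC boxes, as did the Mfge8 window, the Mertk window 3, and the Axl and Lrp1 windows 1 each. Of 32851 RefSeq promoter windows of this length 32.7% held at least 1, a share of windows that gives no number of boxes per window. That share was not matched for GC content, whose median over all windows was 52.4%. The Gas6, Mfge8, Mertk, Axl and Lrp1 windows were 54.8, 65.2, 63.6, 60 and 67.2% GC. The matched windows without a GC box were 57.2% (Stab1), 47.6% (Marco) and 36.8% GC (Cd163). A PU.1 core lay in the windows of Axl, Mfge8, Marco and Stab1, and in 23.3% of all windows. Among these 8 members a STAT motif (TTCNNNGAA) matched in Lrp1 alone (7.02% of all windows), and AP-1 (TGANTCA, 6.75%), the LXR DR4 element (0.0152%) and the Maf recognition element (0.00609%) matched in none. A match describes the letters in the window and says nothing of binding.

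Msr1 (ENSMUSG00000025044, minus strand of chr8:39581685-39642673) encodes scavenger receptor A, a class A receptor for modified lipoproteins and bacterial surfaces. Its values were 13.20, 13.25, 12.65 and 12.76 in vehicle and 13.69, 13.80, 13.22 and 13.34 with SLIT2. The groups overlapped by a single library, SLIT2 replicate 3, and the SLIT2 library was the higher one in 4 of 4 pairs, by 0.49, 0.55, 0.57 and 0.58. The difference was 0.55 (SE 0.18, limma adjusted p = 0.0862), and its adjusted p was 6.85e-05 under the replicate block and 0.0332 for averaged duplicates. The set took 43.8% of its sum of squares and treatment 54.2%. The effect in the sets, 0.52 and 0.58, differed by 0.055 (95% interval -0.13 to 0.24).

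Marco (ENSMUSG00000026390, minus strand of chr1:120474538-120505024), also a class A receptor and known for binding bacteria and particles, varied mainly between the sets. Its values were 7.78, 8.03, 5.77 and 6.18 in vehicle and 7.60, 8.88, 6.39 and 6.29 with SLIT2. Replicates 3 and 4 minus replicates 1 and 2 came to -1.93 in vehicle and -1.90 with SLIT2, and the set took 86.1% of the sum of squares. The difference with SLIT2 was 0.35 with a 95% interval from -1.28 to 1.98 (limma adjusted p = 0.827; 0.169 with the replicate block). Without SLIT2 replicate 2 it was -0.18, and without vehicle replicate 3 it was -0.040. Leaving out other single libraries gave between 0.097 (vehicle replicate 4) and 0.71 (vehicle replicate 2).

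Stab1 (ENSMUSG00000042286, minus strand of chr14:31139013-31168641) encodes stabilin-1, an endocytic receptor of macrophages and sinusoidal endothelium that also binds phosphatidylserine. Its values were 14.75, 14.66, 14.50 and 14.20 in vehicle and 14.87, 14.89, 14.64 and 14.49 with SLIT2. The SLIT2 library was the higher one in 4 of 4 pairs, by 0.12 to 0.29, while the groups overlapped. The difference was 0.195 (SE 0.14, limma adjusted p = 0.426), and its adjusted p was 0.0103 under the replicate block and 0.111 for averaged duplicates. The difference was 0.086 without vehicle replicate 4. Stab1 shares 112 exonic bases with Nt5dc2 on the opposite strand. Its paralog Stab2 was under the filter, at 3.72 ± 0.14 in vehicle and 3.59 ± 0.18 with SLIT2 (SD, n = 4).

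Lrp1 (ENSMUSG00000040249, minus strand of chr10:127538161-127621148) encodes a large endocytic receptor, which binds many ligands, calreticulin on apoptotic cells among them. Its values were 15.12, 15.17, 15.30 and 15.33 in vehicle and 14.96, 14.92, 15.13 and 15.22 with SLIT2. SLIT2 libraries were lower in 4 of 4 pairs, by 0.11 to 0.25. The difference was -0.17 (SE 0.083, limma adjusted p = 0.235), and its adjusted p was 0.0111 under the replicate block and 0.152 for averaged duplicates.

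Scarb1 (ENSMUSG00000037936, minus strand of chr5:125277087-125341094) encodes the high-density lipoprotein receptor SR-B1. Its values were 11.38, 11.40, 11.53 and 11.52 in vehicle and 11.45, 11.42, 11.51 and 11.49 with SLIT2. The difference was 0.010 with a 95% interval from -0.10 to 0.12, the narrowest but 1 of the tested members (limma adjusted p = 0.931). The set took 84.9% of its sum of squares.

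Cd163 (ENSMUSG00000008845, plus strand of chr6:124304656-124330527) encodes the haemoglobin scavenger receptor. It was under the filter, with values of 2.30, 2.19, 2.09 and 2.08 in vehicle and 1.99, 2.10, 2.02 and 1.99 with SLIT2. SLIT2 libraries were lower in 4 of 4 pairs, by 0.07 to 0.31, at a level where rlog shrinks differences most. Fitted without a filter, the difference was -0.14 (SE 0.058, limma adjusted p = 0.251).

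**Figure D3:**
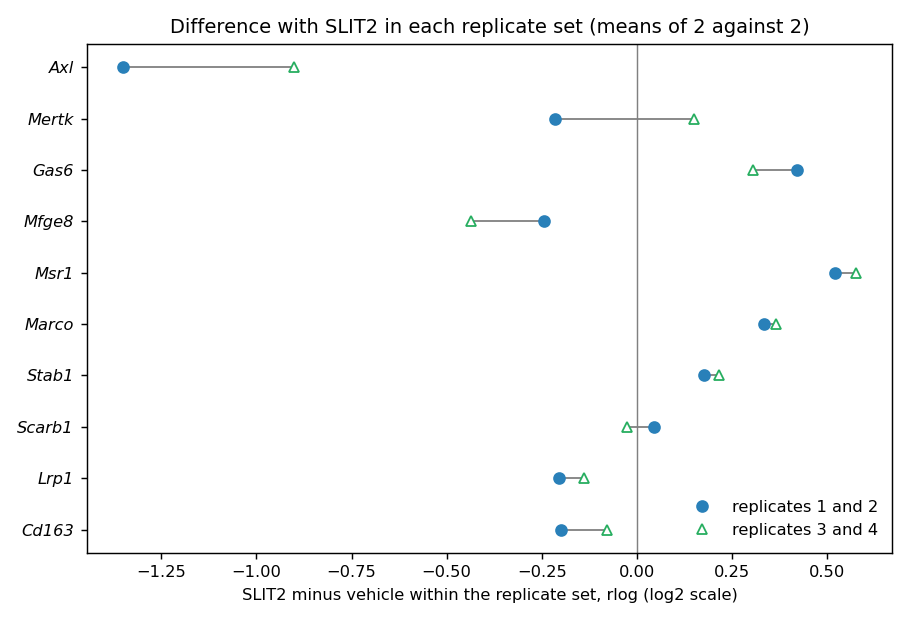
Difference with SLIT2 within each replicate set, as the mean of 2 SLIT2 minus the mean of 2 vehicle libraries in rlog on a log2 scale. Blue circles are replicates 1 and 2 and green triangles replicates 3 and 4. The points of Mertk lie on either side of 0, at -0.22 and 0.15, and those of Axl at -1.35 and -0.90.

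Members differed widely in level. To compare genes, the log2 of the exonic length in kilobases was subtracted from the rlog value. In vehicle Gas6 was the highest member at 13.5, above 99.1% of all genes tested, followed by Stab1 at 11.2, Lrp1 at 11.1, Msr1 at 10.3, Mfge8 at 10.1, Mertk at 9.86, Axl at 9.04, Scarb1 at 8.37, Marco at 6.00 and Cd163 at -0.28. The ranges over the 4 vehicle libraries overlapped for the neighbours Stab1 and Lrp1, Msr1 and Mfge8, and Mfge8 and Mertk, and for no other neighbours. With SLIT2 the first 4 kept their order, while Mertk (9.83) came before Mfge8 (9.73) and Scarb1 (8.38) before Axl (7.92).

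**Figure D4:**
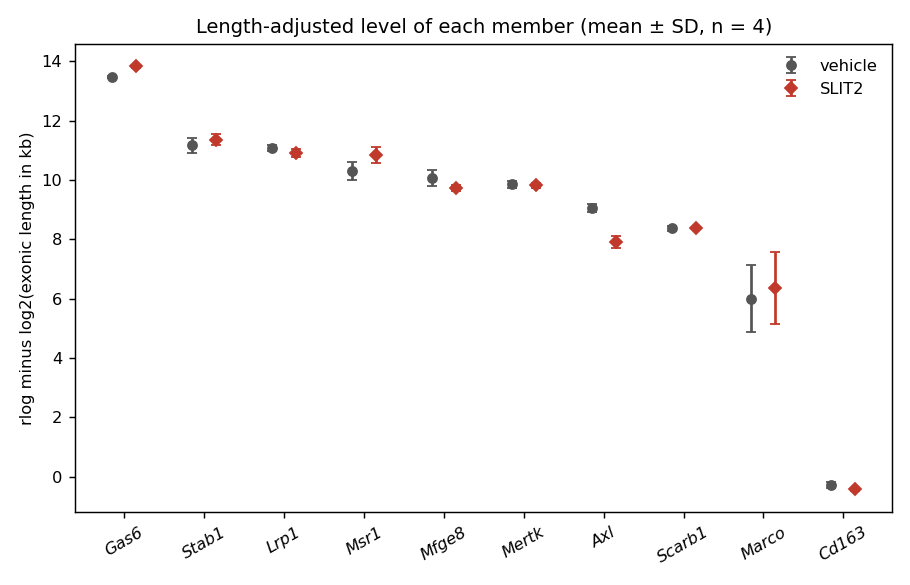
Level of each member, as rlog minus the log2 of exonic length in kilobases, in vehicle (grey circles) and SLIT2 (red diamonds), with the mean ± SD (n = 4). Members are ordered by their vehicle level, from Gas6 at 13.5 to Cd163 at -0.28, and Axl drops below Scarb1 with SLIT2.

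Likeness of pattern was searched among tested genes with an SD of at least 0.2 over the 8 libraries, without clone and model names (Gm and Rik). The genes searched whose pattern was most like that of Axl were Emp1 (Pearson r = 0.993) and the iron exporter gene Slc40a1 (r = 0.992). The 8 values share the treatment and the sets, and 132 of the genes searched reached an r of at least 0.95 with Axl. For Gas6 the most alike were the stress-response gene Nupr1 (r = 0.999) and the ESCRT-associated gene Ist1 (r = 0.997), among 161 of the genes searched with an r of at least 0.95. Emp1 and Slc40a1 fell by 0.79 and 1.11, and Nupr1 and Ist1 rose by 1.41 and 0.70.

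Other receptors and bridges for apoptotic cells moved in both directions. Of 23 genes 17 were tested, 3 rose and 5 fell (8 and 6 with the replicate block), with a median difference of 0.33. The count that rose was 1 without vehicle replicate 3 or 4 or SLIT2 replicate 1 or 2, and 2 without SLIT2 replicate 3. Beside this list and each list below, 6.76% of all genes tested rose and 6.58% fell, or 16.6% and 16.4% with the block. With averaged duplicates 3.15% of all genes tested rose and 2.66% fell. Besides Pros1 and Itgb3, Cd300a, an inhibitory receptor for phosphatidylserine, fell by 0.74 (SE 0.045, limma adjusted p = 6.13e-05) and the annexin gene Anxa1 by 0.72 (SE 0.050, adjusted p = 1.05e-04). The Cd300 genes are paralogs and may share reads. Trem2, a lipid receptor, fell by 0.55 (adjusted p = 0.0389), and P2ry6, a receptor for nucleotides that dying cells release, rose by 0.45 (adjusted p = 0.0288). The genes of complement C1q, which also bridges dying cells to macrophages, differed by 0.54 (C1qa, adjusted p = 0.295), 0.45 (C1qb, 0.0371) and 0.35 (C1qc, 0.0539). With the replicate block their adjusted p were 1.79e-04, 2.89e-04 and 5.70e-04, and with averaged duplicates 0.0361, 0.0530 and 0.0628, so that C1qb and C1qc were not called there. Timd4, another phosphatidylserine receptor gene, was under the filter, at -0.29 in vehicle and -0.31 with SLIT2, and Havcr1 was listed at 0.

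Among 20 other scavenger and lipoprotein receptor genes 15 were tested, of which 3 rose and 3 fell (the same counts with the block), with a median of 0.12. Cd36, a receptor for oxidized lipoprotein and fatty acids, fell from between 14.82 and 14.96 to between 13.36 and 13.96, by 1.18 (SE 0.12, limma adjusted p = 6.56e-04). Sort1, which encodes the sorting receptor sortilin, fell by 0.68 (SE 0.12, adjusted p = 0.00916). Cxcl16, a membrane-bound chemokine that also binds oxidized lipoprotein, rose by 0.61 (SE 0.10, adjusted p = 0.00678). Cxcl16 rose by 0.73 in the first set and by 0.49 in the second. Its call was lost with averaged duplicates (0.0534), where 0 genes of the list rose and 2 fell. Cxcl16 shares 552 exonic bases with Zmynd15 and Sort1 338 with Gm12523, both on the opposite strand.

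Of 20 genes of the engulfment machinery 19 were tested, 3 rose and 4 fell (4 and 6 with the block), with a median of 0.005. The count that rose was 2 without SLIT2 replicate 4, 1 without any other single library and 1 with averaged duplicates. Vav1, an exchange factor for Rac, rose by 0.54 (SE 0.065, limma adjusted p = 0.00125). Arhgap25, a Rac GTPase-activating protein gene, fell by 0.61 (SE 0.050, adjusted p = 2.26e-04), and the class I myosin genes Myo1f and Myo1e fell by 0.49 and 0.32, a call lost for Myo1e with averaged duplicates (0.0537).

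Of 8 genes of inhibitory signals against engulfment, 6 were tested, 1 rose and 1 fell (3 and 3 with the block), with a median of 0.010. Pirb, an inhibitory receptor whose reads may be shared with its Pira paralogs, rose by 0.38 (SE 0.10, limma adjusted p = 0.0466). Sirpa, the receptor for the signal CD47, fell by 0.20 (SE 0.051, adjusted p = 0.0349). The call of Pirb was lost without any single library other than SLIT2 replicate 3 (adjusted p 0.0631 to 0.122), and that of Sirpa without any of the 8. With averaged duplicates neither was called (0.0560 and 0.163), nor was Cd47 (0.133). Cd47 itself showed a difference of 0.16 (adjusted p = 0.337, blocked 0.00588).

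Of 9 proteases and inhibitors that bear on receptor shedding, all tested, 1 rose and 1 fell (2 and 3 with the block), with a median of 0.043. Timp1, a metalloprotease inhibitor gene, rose from between 5.46 and 5.93 to between 6.62 and 6.66, by 1.02 (SE 0.11, limma adjusted p = 6.16e-04). Adam8 fell by 0.57 (SE 0.12, adjusted p = 0.0190), by 0.78 in replicates 1 and 2 and by 0.37 in replicates 3 and 4, and its call was lost without SLIT2 replicate 2 (0.0555) or SLIT2 replicate 3 (0.0537), and with averaged duplicates (0.0992). Adam17 and Adam10, the proteases known to shed Mertk and Axl from the surface, showed differences of -0.10 (adjusted p = 0.839, blocked 0.0426) and 0.043 (adjusted p = 0.864). With averaged duplicates Adam17 was not called (0.253). Adam17 shares 311 exonic bases with Iah1 on the opposite strand, and Adam8 46 with Gm16201.

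Of 16 nuclear receptor, Maf and LXR target genes, factors known to control efferocytosis genes among them, all were tested, 3 rose and 2 fell (4 and 5 with the block), with a median of 0.061. Ppard, a nuclear receptor gene, rose by 0.55 (SE 0.081, limma adjusted p = 0.00338). Nr4a1 fell by 1.02 (SE 0.20, adjusted p = 0.0114), by 1.49 in replicates 1 and 2 and 0.56 in replicates 3 and 4. With averaged duplicates the calls of Ppard (0.0606), Nr4a1 (0.131) and Mylip (0.0819) were lost, and the list held 1 gene that rose and 0 that fell. Mylip, an LXR target, fell by 0.28 (SE 0.069, adjusted p = 0.0335), a call lost without vehicle replicate 1 or 2 or SLIT2 replicate 1, 3 or 4 (0.0753 to 0.0861). The LXR gene Nr1h3 showed a difference of -0.51 (adjusted p = 0.0788, blocked 0.00491, averaged duplicates 0.0947), and the LXR target Abca1 by 0.13 (adjusted p = 0.861). Slit2 itself was under the filter, at 3.51 ± 0.49 in vehicle and 3.29 ± 0.17 with SLIT2 (SD, n = 4).

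**Figure D5:**
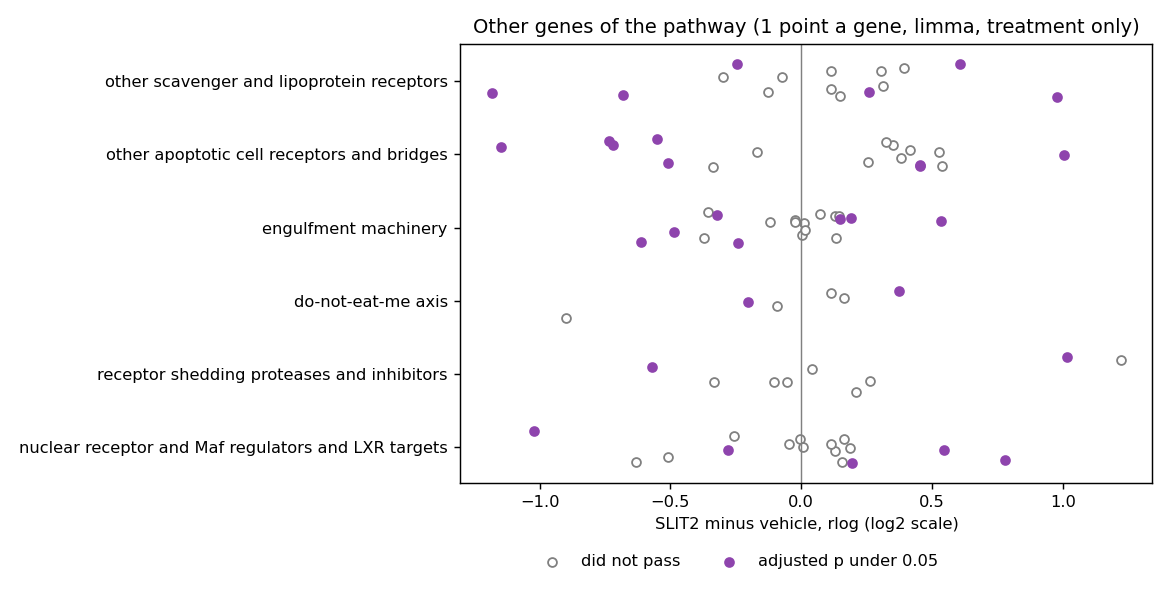
Difference with SLIT2 for the other genes of the pathway, as SLIT2 minus vehicle rlog on a log2 scale, with a point for each tested gene of each list and vertical scatter for legibility only. Filled points passed limma at an adjusted p under 0.05 with treatment only, and the list of apoptotic cell receptors and bridges spans Itgb3 at -1.15 to Pros1 at 1.01.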

How the data were processed

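Bulk RNA-seq libraries (stranded mRNA kit, 300 ng of total RNA, paired-end reads of 101 bp, per the labels' protocols) were made from 4 vehicle and 4 SLIT2 samples. The authors deposited regularized-log (rlog) values on a log2 scale to 2 decimals, per the file headers. The submitters' processing notes list DESeq2, Salmon, STAR, Picard 2.23.8, SAMtools 1.7 and FastQC 0.11.9 and the builds mm10 and GRCm38, without roles or settings. As a method, rlog scales libraries by size and pulls weakly expressed genes towards their mean, so differences of low genes are understated. Depth is unknown, so no counting interval is given.

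The test, on genes whose mean rlog reached 4, was limma 3.58.1 (R 4.3.3; linear model, eBayes with trend, two-sided, Benjamini-Hochberg over 11851 genes, threshold 0.05), with treatment only. The replicate numbers in the labels were taken to pair the samples. Deviations from the group means, correlated over genes between samples of the same number, gave 0.637, 0.671, 0.753 and 0.587 for numbers 1 to 4. Samples of unlike number were not compared, and the replicate sets stand apart. These values therefore cannot tell pairing by number from a shared set. A second model tested the difference of the SLIT2 effect between replicates 1 and 2 and replicates 3 and 4. Alternatives were a replicate block, a set block, averaged duplicates, other filters, priors, scalings and weights, and each library left out. The fits within each set were added after the data were seen. The steps were tested on simulated data.

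List members were matched by identifier to GENCODE M21 on GRCm38, which also gave coordinates, exonic lengths and overlaps. In the list of inhibitory signals 1 of 8 symbols matched no row. Members and lists were chosen with earlier results of these data known. The rule for named genes took all members and up to 4 called members of each other list with the widest difference. For each called member it also took the 2 genes with the highest correlation, among genes with an SD of at least 0.2 and no clone or model name. Its exceptions, named after their values were seen, are Xist, Ddx3y, the cell type markers, Tyro3, Stab2, Itgav, Itgb5, Trem2, P2ry6, the C1q genes, Timd4, Havcr1, Cd47, Adam17, Adam10, Nr1h3 and Abca1. Some genes that the rule took are not reported here. Figures were drawn with matplotlib 3.10.9.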

Additional observations from a re-analysis of the deposited data

Results flagged for a closer look

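The effect of SLIT2 was compared between replicates 3 and 4 and replicates 1 and 2 for 29 genes, the 9 tested members and the 20 genes the naming rule took from other lists. It differed for 4 of them in the limma test of that difference, which 4.40% of all genes tested passed. The 20 had been picked for being called with SLIT2, so the 29 are not a neutral sample of genes. The difference of the effects was 0.365 for Mertk (adjusted p = 0.0105), whose effects had opposite signs, 0.410 for Adam8 (0.0152), 0.930 for Nr4a1 (0.0320) and -0.245 for Cxcl16 (0.0395), the last 3 keeping their direction in both sets. Among genes named outside these 29 the test was also passed by Slc40a1 (0.61, adjusted p = 0.00209), Emp1 (0.23, 0.0414) and Itgav (0.305, 0.0419), and by the macrophage markers Itgam (0.31, 0.0136), Fcgr1 (0.46, 0.0157) and Mrc1 (0.305, 0.0365). The error in these tests comes from duplicates.

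A single library stood apart from the other 3 of its group in 2 of 62 groups examined, where chance flags about 5% of groups. The lowest vehicle library of Myo1e, replicate 3, took 0.833 of the group's range, and the lowest SLIT2 library of Sirpa, also replicate 3, took 0.889.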

How the results depend on the processing

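The 1581 genes called with treatment only, 2 of them members, became 3912 with the replicate block, which kept all 1581, 4652 with a set block and 688 with averaged duplicates. They became 3962 within replicates 1 and 2, 2880 within replicates 3 and 4, and 1021 to 1254 with 1 library left out, lowest without SLIT2 replicate 2. Members called were 6 with the replicate block or the set block, 7 within replicates 1 and 2 and 4 within replicates 3 and 4, and 2 (Axl and Gas6) in each fit with 1 library left out. With averaged duplicates the 2 called were Axl (adjusted p = 0.0469) and Msr1 (0.0332). Genes whose effect differed between the sets were 521, and 294 without a filter and 116 without a trend. Differences that changed sign were those near 0 or of wide spread. Scarb1 was -0.019 with quantile normalization, -0.025 within replicates 3 and 4 and -0.016 to 0.034 with 1 library left out. Mertk was 0.15 within replicates 3 and 4 and -0.072 to 0.0058 with 1 library left out, and Marco -0.18 to 0.71. Of the 20 genes that the naming rule took from the other lists, 9 lost their call with averaged duplicates, and 4 (Sirpa, Pirb, Mylip and Adam8) with at least 1 library left out. The replicate block ended the call of none of the members or of these 20 genes. Unknown depth limits what can be said of low genes such as Cd163.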
